A study of Homo sapiens with 8 samples.

Results

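AHNAK and AHNAK2 are very large scaffold proteins, the ferlins are membrane proteins that act in membrane fusion and repair, and annexins and S100 proteins, most of which bind calcium, meet them at the plasma membrane. The 10 genes AHNAK, AHNAK2, DYSF, MYOF, ANXA1, ANXA2, ANXA6, S100A6, S100A10 and S100A11 form the group described here. They were selected with the intensity differences between siESRP and siGFP arrays of these same data in view. Their rows were found in the platform annotation as those with exactly 1 gene symbol. This gave 10 rows for 9 of the 10 genes, out of 18495 rows in all, with 2 rows for S100A6 and none for AHNAK. The rows annotated to AHNAK together with IGHG1, and to ANXA2 together with its pseudogene ANXA2P2, are described separately because they carry 2 symbols.

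The cells were PNT2, an immortalized and widely used human cell line from prostatic epithelium. In the siESRP group, 4 samples received small interfering RNA against both ESRP1 and ESRP2, epithelial regulators of splicing. In the siGFP group, 4 control samples received small interfering RNA against green fluorescent protein. RNA was measured on Affymetrix exon arrays, 1 array per sample, as 1 gene-level value per row, which does not measure exon use. The comparison asks which gene-level values differ when both ESRPs are depleted. Any part of exon use in these values was not tested.

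The siRNA targets had lower values in siESRP cells. ESRP1 averaged 582 ± 66.9 in siESRP cells and 2439 ± 169 in siGFP cells, and the row shared by ESRP2 and NFATC3 averaged 148 ± 27.4 in siESRP cells and 531 ± 33.4 in siGFP cells (SD, n = 4 each, limma adjusted p = 6.58e-05 and 0.000336). Epithelial identity was visible in CDH1 and EPCAM and in KRT8 and KRT18, which belong to the 4 measured luminal prostate markers. Group means of CDH1, EPCAM, KRT8 and KRT18 lay between 2137 and 6964. CDH1 (3042 in siESRP and 2137 in siGFP) and KRT18 (5991 and 4917) were higher in siESRP cells (limma adjusted p = 0.00182 and 0.00681). KRT19, another epithelial marker, averaged 5234 in siESRP and 4480 in siGFP (limma adjusted p = 0.0078). EPCAM and KRT8 did not pass a limma adjusted p of 0.05 (0.370 and 0.539). The other luminal markers measured, KLK3 (65.2 in siESRP and 61.7 in siGFP) and TMPRSS2 (32.5 in siESRP and 22.3 in siGFP), lay near background. Of the basal markers, KRT14 averaged 367 in siESRP and 765 in siGFP, KRT15 231 and 151, and ITGA6 2854 and 2193 (limma adjusted p = 0.00465, 0.00878 and 0.0069). Deposited array medians ran from 247 to 269 in siESRP and from 233 to 286 in siGFP, and the number of arrays limits the precision.

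At a wounded plasma membrane, calcium entering the cell draws annexins and S100 proteins to the membrane, and ferlins, which bind phospholipid through their C2 domains, take part in vesicle fusion and resealing. S100A10, an S100 protein that does not need calcium for its active form, makes a tight complex with ANXA2, and this complex binds the C-terminal part of AHNAK. S100A11 binds ANXA1 in a similar way, and S100A6 binds several annexins. AHNAK and the ANXA2 complex are also known from epithelia, where they lie along the lateral membrane.

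All 10 genes had at least 1 promoter sequence in RefSeq (GRCh38.p14), covering 250 bases before and 50 bases after the start site. Shown 5′ to 3′ on the gene's strand are the promoters of the 3 members with the largest differences, AHNAK2 (the upstream one of its 2 promoters, chr14:104978325-104978624, minus strand), DYSF (chr2:71453311-71453610, plus strand) and MYOF (chr10:93482285-93482584, minus strand). That of ANXA2 (chr15:60397937-60398236, minus strand) is set beside them as a gene whose level was nearly equal in the groups. Capitals mark matches, on either strand, to the 4 motifs searched, which were the AP-1 motif TGANTCA, the TEAD motif GGAATG, the TATA box TATAAA and the GC box GGGCGG.
AHNAK2 promoter: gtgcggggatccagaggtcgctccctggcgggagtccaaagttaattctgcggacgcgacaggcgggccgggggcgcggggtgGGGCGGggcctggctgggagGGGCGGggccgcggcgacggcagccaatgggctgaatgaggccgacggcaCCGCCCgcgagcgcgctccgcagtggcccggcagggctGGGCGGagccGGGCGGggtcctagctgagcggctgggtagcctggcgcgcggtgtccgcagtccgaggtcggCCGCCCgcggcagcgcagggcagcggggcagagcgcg
DYSF promoter: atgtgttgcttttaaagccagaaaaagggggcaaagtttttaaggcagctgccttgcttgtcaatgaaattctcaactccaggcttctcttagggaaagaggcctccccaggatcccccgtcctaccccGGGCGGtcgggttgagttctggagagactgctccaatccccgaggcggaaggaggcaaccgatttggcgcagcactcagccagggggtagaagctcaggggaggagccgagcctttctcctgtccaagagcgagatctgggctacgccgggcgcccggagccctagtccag
MYOF promoter: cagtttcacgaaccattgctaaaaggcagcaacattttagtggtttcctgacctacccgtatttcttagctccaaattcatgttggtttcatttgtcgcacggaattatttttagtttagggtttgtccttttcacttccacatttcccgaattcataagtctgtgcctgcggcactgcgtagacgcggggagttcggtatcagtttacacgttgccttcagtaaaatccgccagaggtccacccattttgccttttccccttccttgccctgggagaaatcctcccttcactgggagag
ANXA2 promoter: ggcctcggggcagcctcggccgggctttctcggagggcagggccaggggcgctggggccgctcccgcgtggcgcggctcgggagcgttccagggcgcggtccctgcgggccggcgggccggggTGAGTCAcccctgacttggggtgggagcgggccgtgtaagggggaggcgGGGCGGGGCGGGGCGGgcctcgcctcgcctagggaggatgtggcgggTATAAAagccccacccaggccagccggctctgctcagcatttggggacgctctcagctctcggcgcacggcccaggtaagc

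No motif was found in all of these windows, and the GC box was the most frequent. The GC box was found in at least 1 promoter of 8 of the 10 genes, where 45% of all 35116 promoters of this length hold it. AHNAK2 carried 6 GC boxes in the promoter shown and 1 in its other promoter, DYSF carried 1, and MYOF had no match to any of the 4 motifs. In ANXA2, 3 GC boxes overlap each other by their end bases. The AP-1 motif was found only in ANXA2, at -127 to -121 from the start site, against 7.71% of all promoters. The TEAD motif was found only in AHNAK, against 14% of all promoters, and the TATA box in ANXA1 and ANXA2, at -31 to -26 in both, against 11.5%. Base composition also ranged widely, with 78% G and C in the AHNAK2 promoter shown, 58.7% in DYSF, 46.7% in MYOF and 37.7% in ANXA1, where the median over all promoters was 58.7%. Matches are a description of letters and do not show binding.

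The values below are quantile-normalized linear intensities, and differences are siESRP minus siGFP on the log2(value + 1) scale with the standard error (SE) of a limma fit over all rows. The members were selected on this contrast, so their differences are a description and carry no test. In that fit, 20.2% of the 18495 rows passed an adjusted p of 0.05, 10.9% as higher and 9.31% as lower in siESRP cells. Of the 9 measured members, 4 were past that threshold as higher, 1 as lower and 4 were not past it. In 5 of the 9 the groups stood fully apart, as they did in 24.6% of all rows. The members' median log2 difference was 0.29, beside -0.02 over all rows. In bulk RNA, fewer cells with a transcript and less of it per cell cannot be told apart.

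**Figure D1:**
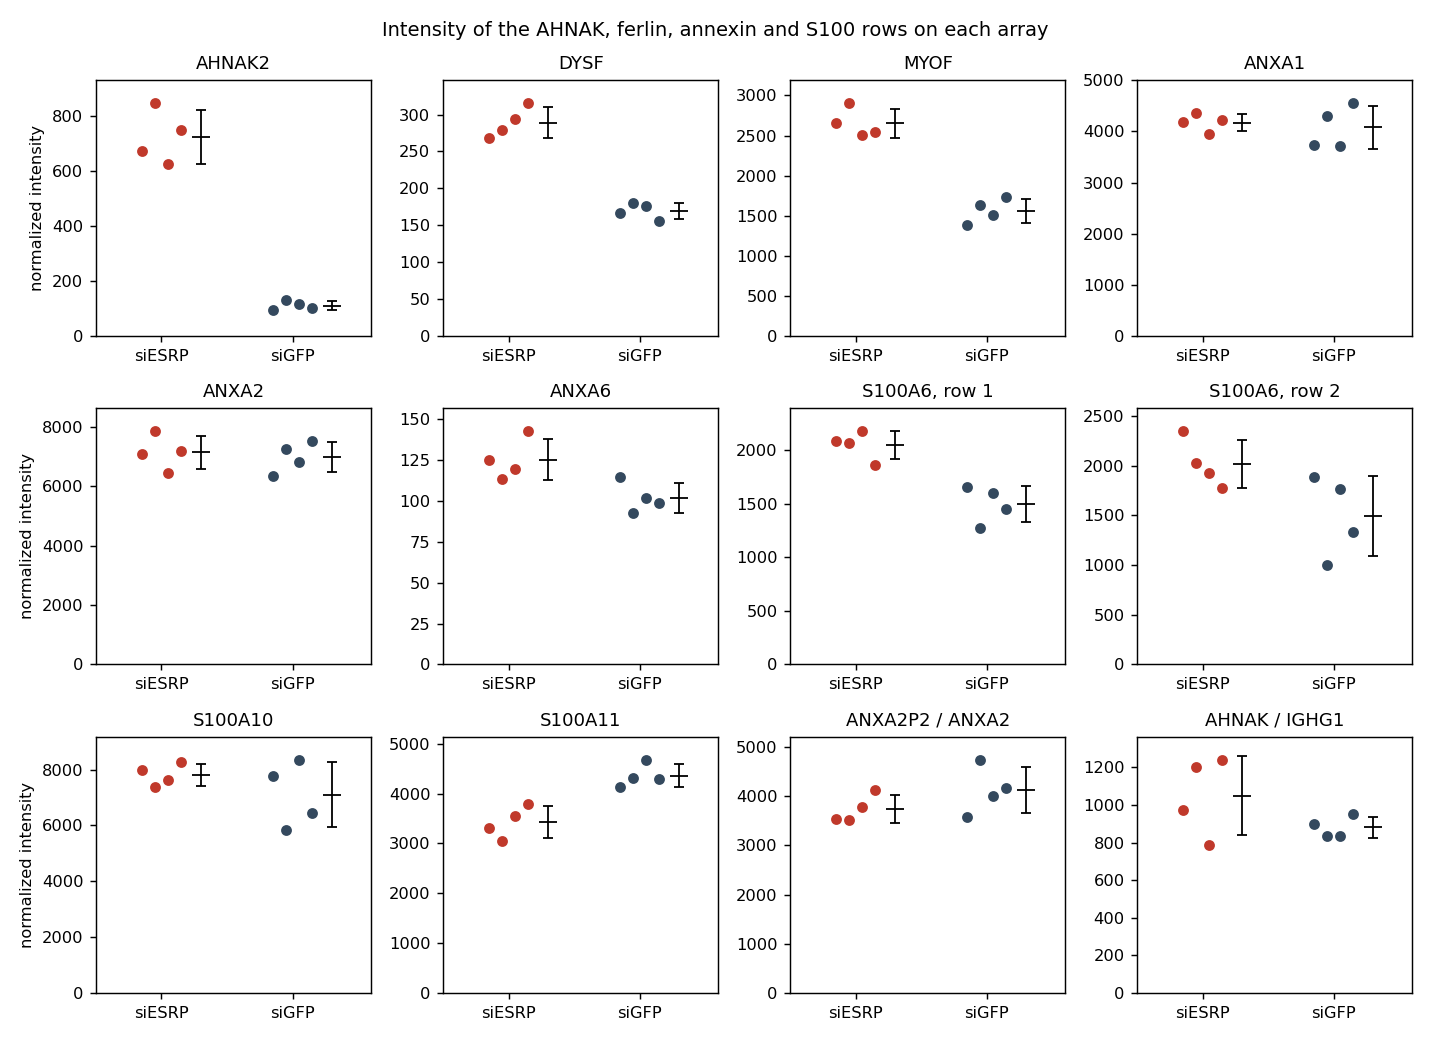
Quantile-normalized intensity (y axis, from 0) on each of the 4 siESRP arrays (red, left) and 4 siGFP arrays (dark, right) for each row, with the mean and SD as bars. AHNAK2, DYSF and MYOF separate fully with siESRP above, S100A11 separates with siESRP below, and ANXA1 and ANXA2 overlap.

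AHNAK2, the less studied relative of AHNAK, had the widest difference of the 9. Its row read 674, 847, 625 and 748 on the siESRP arrays, against 95.6, 131, 115 and 101 on the siGFP arrays. The lowest siESRP array was 4.75 times the highest siGFP array. The means were 724 ± 96.9 in siESRP cells and 111 ± 15.96 in siGFP cells (SD, n = 4 each), a log2 difference of 2.70 ± 0.13 SE. It ranked 15 from the top of all 18495 rows, and 5 among 9646 single-symbol rows that were bright, meaning a higher group mean of at least 100 and 8 values above 0.

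The AHNAK transcript itself could be read only through the row it shares with IGHG1, an immunoglobulin heavy chain gene. That row read 974, 1200.2, 785 and 1239 in siESRP cells, against 901, 837, 834 and 949.5 in siGFP cells. Of the siESRP arrays, 3 lay above every siGFP array and 1, replicate 3, lay below all of them. The log2 difference was 0.23 ± 0.15 SE, and the coefficient of variation (CV) was 20.1% in siESRP cells and 6.30% in siGFP cells. The IGHG1 part of this signal was not tested.

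Both ferlins among the members were higher in siESRP cells by nearly the same factor. MYOF, myoferlin, which acts in membrane repair and receptor trafficking in epithelial, endothelial and muscle precursor cells, read 2653, 2906, 2507 and 2548.5 in siESRP cells, against 1386, 1639, 1505 and 1727 in siGFP cells. All 4 siESRP arrays lay above the siGFP arrays, and the means were 2653.5 ± 179 in siESRP cells and 1565 ± 150 in siGFP cells (SD, n = 4 each). DYSF, dysferlin, the ferlin whose loss causes muscular dystrophy, read 268, 279, 293 and 316 in siESRP cells, against 166, 180, 176 and 156 in siGFP cells. Its means were 289 ± 20.5 in siESRP cells and 169 ± 10.5 in siGFP cells (SD, n = 4 each). The fold was 1.70 for both, with log2 differences of 0.77 ± 0.07 SE for DYSF and 0.76 ± 0.08 SE for MYOF. DYSF is best known from muscle, and the summed intensity of 5 measured muscle markers was 627 to 743 in siESRP and 674 to 798 in siGFP. Of these, ACTA1 made up most of the sum (474 in siESRP and 517 in siGFP). DES, MYOD1 and MYOG had group means between 50.5 and 87.25, around the KLK3 level (65.2 in siESRP and 61.7 in siGFP). Part or all of these levels may therefore be background. CKM also lay near background (18.4 in siESRP and 19.2 in siGFP). The log2 differences of ACTA1, DES, MYOD1 and MYOG were between -0.35 and -0.13, and none passed (limma adjusted p from 0.269 to 0.776).

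ANXA1 and ANXA2 differed little between the groups. ANXA2, which pairs with S100A10, read 7070.5, 7840.1, 6459 and 7168.5 in siESRP cells, against 6345, 7247, 6797 and 7523 in siGFP cells. The groups overlapped, and the log2 difference was 0.03 ± 0.08 SE. The row shared with the pseudogene ANXA2P2, which is a near-identical copy, averaged 3738 ± 284 in siESRP cells and 4123 ± 475 in siGFP cells, with overlap and a log2 difference of -0.14 ± 0.10 SE. Signal from the gene and its copy may not be separable, so the ANXA2 level is uncertain. ANXA1, which limits inflammation and binds S100A11, averaged 4173 ± 166 in siESRP cells and 4080 ± 415 in siGFP cells, a log2 difference of 0.04 ± 0.08 SE. Both rows are bright, above 98.4% and 99.8% of all rows for ANXA1 and ANXA2.

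ANXA6, the annexin with a doubled core that acts at the plasma membrane and late endosomes, stood between these and the ferlins. It read 125, 113.5, 119.6 and 142 in siESRP cells, against 114, 92.6, 102 and 98.6 in siGFP cells. Of the siESRP arrays, 3 lay above all siGFP arrays and replicate 2 lay just under the highest of them. The log2 difference was 0.29 ± 0.09 SE. By absolute size, ANXA6 was the first member not past the threshold and S100A11 (-0.35) the last one past it. Without siGFP replicate 1 the log2 difference of ANXA6 was 0.35 and passed.

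The S100 members moved in different directions. S100A6, calcyclin, had 2 rows with nearly the same difference and different spread. The brighter row read 2087, 2069, 2174 and 1857 in siESRP cells, against 1657, 1274, 1596 and 1453 in siGFP cells. The groups did not overlap, and the log2 difference was 0.46 ± 0.09 SE. The other row read 2345.5, 2032, 1929 and 1779 in siESRP cells, against 1883, 1004, 1766 and 1334.5 in siGFP cells. There the groups overlapped, with a log2 difference of 0.47 ± 0.21 SE and a CV of 11.9% in siESRP cells and 27.0% in siGFP cells. With the mean of both rows, or on the arrays as deposited, S100A6 was not past the threshold (log2 differences 0.46 and 0.44).

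S100A10, the partner of ANXA2 and AHNAK, read 7987, 7374, 7643 and 8276.5 in siESRP cells, against 7774, 5832, 8345 and 6441 in siGFP cells. All siESRP arrays lay inside the siGFP range, and the log2 difference was 0.15 ± 0.12 SE. S100A11, the partner of ANXA1, read 3320.5, 3042.5, 3558 and 3800.2 in siESRP cells, against 4128, 4321, 4677 and 4301 in siGFP cells. All 4 siESRP arrays lay below the siGFP arrays, with means of 3430.4 ± 324 in siESRP cells and 4357 ± 230.2 in siGFP cells (SD, n = 4 each) and a log2 difference of -0.35 ± 0.08 SE. S100A11 was past the threshold under 9 of 15 alternatives and not past it on the deposited scale (-0.30), with median scaling (-0.32), with a replicate block (-0.35), or without siESRP replicate 1 (-0.33), siGFP replicate 3 (-0.31) or siGFP replicate 4 (-0.35).

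**Figure D2:**
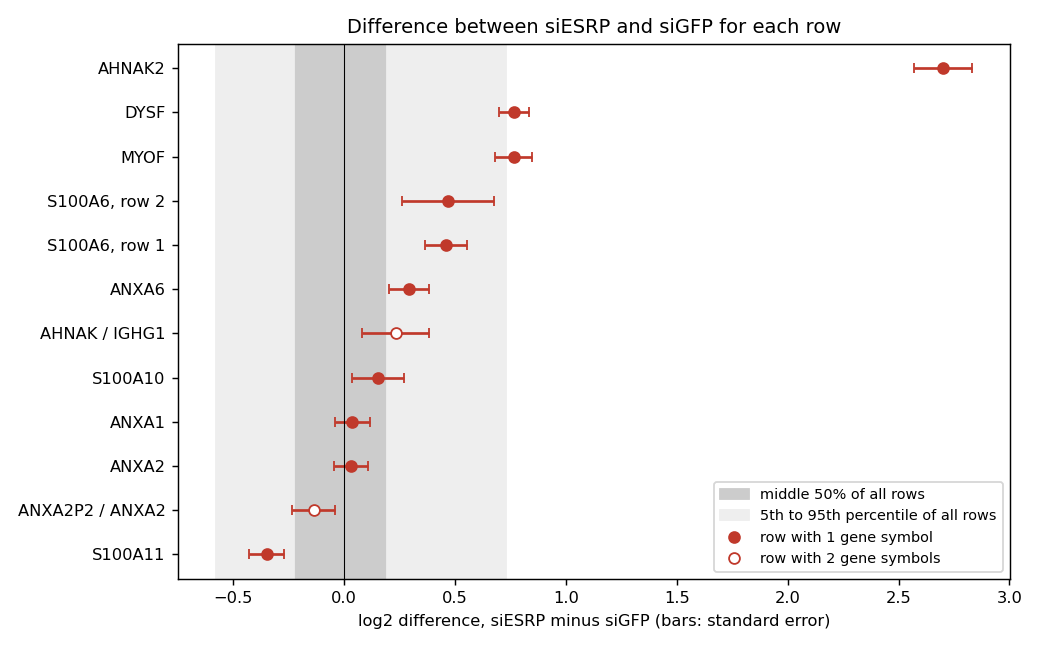
Log2 difference (x axis, siESRP minus siGFP, on the log2(value + 1) scale) with SE bars for each row, filled for rows with 1 symbol and open for rows with 2. AHNAK2 (2.70), DYSF (0.77) and MYOF (0.76) lie beyond the 95th percentile of all rows (0.73), and ANXA1, ANXA2 and S100A10 lie within the middle 50% (-0.23 to 0.19).

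Known binding partners differed in what they showed. S100A10 and ANXA2 had log2 differences of 0.15 and 0.03, and S100A11 and ANXA1 had -0.35 and 0.04. AHNAK2 at 2.70 and the shared AHNAK row at 0.23 lay further apart than any other pair of relatives here. The spread within groups was close to that of bright rows in general. The CV of the 9 members ran from 3.99% to 13.4% in siESRP cells and from 5.28% to 16.4% in siGFP cells, where the median over 12077 bright rows was 9.12% in siESRP cells and 9.26% in siGFP cells.

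By Pearson correlation of log2 values over the 8 arrays, the bright genes most like AHNAK2 were DGLUCY (r = 0.999), CD99L2 (0.996), SPOCK2 (0.995), ACER2 (0.995) and USP54 (0.995), out of 9446 compared. The arrays fall into 2 groups, so this likeness mostly ranks genes by a steady difference between the groups, and it is given as a description. Their log2 differences were 0.95 for DGLUCY, 1.39 for CD99L2, 0.75 for SPOCK2, 1.77 for ACER2, a ceramidase, and 0.67 for USP54. Among the members, DYSF (0.981) and MYOF (0.975) were most like AHNAK2 by the same measure.

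Genes of the same families and of membrane repair, listed by function with earlier results of these data known, were read in the same fit. Their adjusted p-values are therefore not independent of those results. Of 95 such genes, 79 had a row with 1 symbol, and 11 of these rose, 7 fell and 61 did not pass, so 22.8% passed beside 20.2% of all rows. The median log2 difference was -0.04, beside -0.02 over all rows. The 20.2% includes dim rows. With the dimmest 25% of rows left out, 3964 of 13871 rows and 21 of the listed genes passed. The part of brightness in the list shares was not tested.

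Of 7 other annexins measured out of 10 listed, 2 rose, 1 fell and 4 did not pass (median log2 difference 0.04). The share that passed was 42.9%, beside 20.2% of all rows. ANXA11, which tethers RNA granules to lysosomes, read 2770.5, 2972, 2892 and 2807 in siESRP cells, against 2019.8, 2188, 1955 and 2157 in siGFP cells. It rose 1.38-fold (log2 difference 0.46 ± 0.05 SE, limma adjusted p = 0.00135). ANXA4, an annexin of secretory epithelia, rose 1.63-fold, with means of 1225 ± 131 in siESRP cells and 758 ± 145 in siGFP cells (SD, n = 4 each, limma adjusted p = 0.0179, and 0.0556 with a replicate block). ANXA3 fell 1.22-fold (limma adjusted p = 0.0167), and did not pass on the deposited scale (0.265), with median scaling (0.0712) or with a replicate block (0.0661). ANXA5, the annexin used as a probe for exposed phosphatidylserine, averaged 4311 ± 262 in siESRP cells and 4183 ± 267 in siGFP cells and did not pass, nor did ANXA7 (log2 difference -0.18).

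None of 14 other S100 genes measured out of 17 passed, beside 20.2% of all rows (limma, 0 at adjusted p of 0.05, 4 at an unadjusted p of 0.05). Their median log2 difference was -0.16. Both group means were under 50 in 6 of them. S100A16, the brightest, averaged 2605 ± 136 in siESRP cells and 2621 ± 239 in siGFP cells. S100A14 had a log2 difference of -0.25 and passed only without siESRP replicate 4 (limma adjusted p = 0.0144). S100A9, singled out after its values were seen, was the only one of the 14 whose groups did not overlap, beside 24.6% of all rows. It read 176, 148, 106 and 223.5 in siESRP cells, against 103, 67.7, 101 and 50.9 in siGFP cells (log2 difference 1.02 ± 0.30 SE, limma adjusted p = 0.0578). Its partner S100A8 lay near background (9.78 in siESRP and 14.5 in siGFP). Both are abundant in neutrophils and monocytes. Summed intensity of 4 leukocyte markers was 119 to 142 in siESRP and 148 to 218 in siGFP, and PTPRC, CD3E and LCP1 had means under 50 in both groups. The fourth, CSF1R, a receptor of monocytes and macrophages, made up most of the sum and averaged 80.9 in siESRP and 154 in siGFP (limma adjusted p = 0.00323).

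The S100A genes of chromosome 1 were read in their RefSeq order, where positive and negative differences were mixed. The order holds S100A genes only and gives no distances. The promoter windows of S100A10 and S100A11 start at bases 151993810 and 152036955, and that of S100A6 at 153535942. In this order S100A10 and S100A11 stand next to each other, with log2 differences of 0.15 and -0.35. S100A16 (-0.01) stands beside S100A14 (-0.25) and had no clear direction, with -0.05 to 0.05 on leaving out 1 array. The adjacent S100A12 (-0.20) and S100A8 (-1.05) were negative at means under 50. None of these 4 passed. S100A6 (0.46) stands between S100A7, which had no row with 1 symbol, and S100A5, which was at background.

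**Figure D3:**
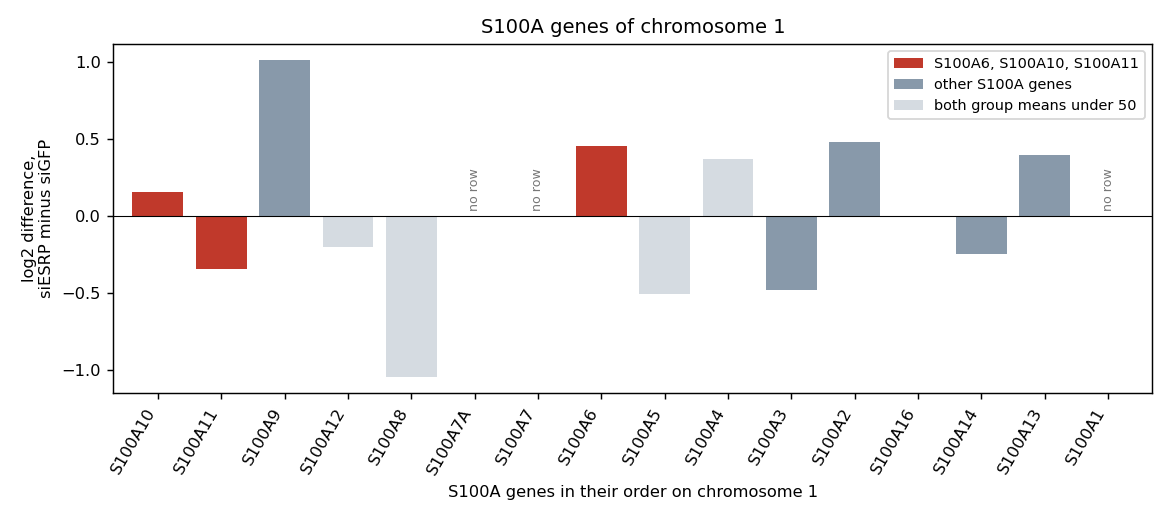
Log2 difference (y axis, siESRP minus siGFP) of the S100A genes of chromosome 1 in their order along it (x axis, not to scale), with pale bars where both group means are under 50. Positive and negative differences are mixed along the order, and none of the grey bars passed the threshold.

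Of the other ferlins only OTOF had a row with 1 symbol, and its means were below 0 in both groups, so no direction is given for it. Of 14 measured genes of ESCRT-III and its partners, which pinch off damaged membrane, 3 fell and 11 did not pass (median log2 difference -0.09). The share that passed was 21.4%, close to the 20.2% of all rows. VPS4A, the ATPase that takes ESCRT-III apart, read 852, 905, 864 and 874 in siESRP cells, against 1007, 1064, 986 and 1049 in siGFP cells. It fell 1.17-fold (log2 difference -0.23 ± 0.04 SE, limma adjusted p = 0.00916, and 0.173 on the deposited scale). CHMP1A fell 1.45-fold (limma adjusted p = 0.0373) and CHMP6 1.29-fold (0.0272), both with unstable calls. CHMP1A did not pass on the deposited scale (0.139), with median scaling (0.0669), with a replicate block (0.103), or without siESRP replicate 1, 3 or 4 or siGFP replicate 1, 3 or 4 (0.0611 to 0.0907). CHMP6 did not pass on the deposited scale (0.0726) or without siESRP replicate 1, 2 or 3 or siGFP replicate 2 or 4 (0.0580 to 0.0754). IST1 and CHMP2A, the brightest that did not pass, had log2 differences of -0.01 and -0.20.

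Of 22 measured genes of the calpain, caveolar and exocytic repair list, 5 rose, 2 fell and 15 did not pass (median log2 difference -0.02). The share that passed was 31.8%, beside 20.2% of all rows, and 18 of the 22 were bright. CAPN5, a calpain protease, read 315, 328, 364 and 339.5 in siESRP cells, against 124, 177, 146 and 164 in siGFP cells. It rose 2.21-fold (log2 difference 1.15 ± 0.11 SE, limma adjusted p = 0.000866). EHD3, an endocytic ATPase of a family with members that bind ferlins, rose 2.13-fold (limma adjusted p = 0.00634), and EHD1, named to complete the count, rose 1.41-fold (0.0181). CAV1, the main caveolar coat protein, averaged 2729 ± 240 in siESRP cells and 1732 ± 257 in siGFP cells (SD, n = 4 each), a rise of 1.58-fold (limma adjusted p = 0.00914, and 0.0982 on the deposited scale). LGALS3, which marks damaged membranes, rose 1.28-fold (limma adjusted p = 0.00264, and 0.0566 on the deposited scale). VAMP7, a SNARE of lysosome exocytosis, fell 1.20-fold (limma adjusted p = 0.0142), and CAVIN3, of the caveolar coat, fell 1.44-fold at means of 62.8 in siESRP and 90.8 in siGFP (0.0164), an approximate fold since the siESRP level is close to that of KLK3. Both lost their call on the deposited scale (0.165 for VAMP7 and 0.130 for CAVIN3) and with a replicate block (0.0559 for VAMP7 and 0.0724 for CAVIN3), and CAVIN3 also with median scaling (0.0898) and without siESRP replicate 1 (0.0503). CAPNS1 and CAV2 had log2 differences of 0.08 and -0.11 and did not pass.

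**Figure D4:**
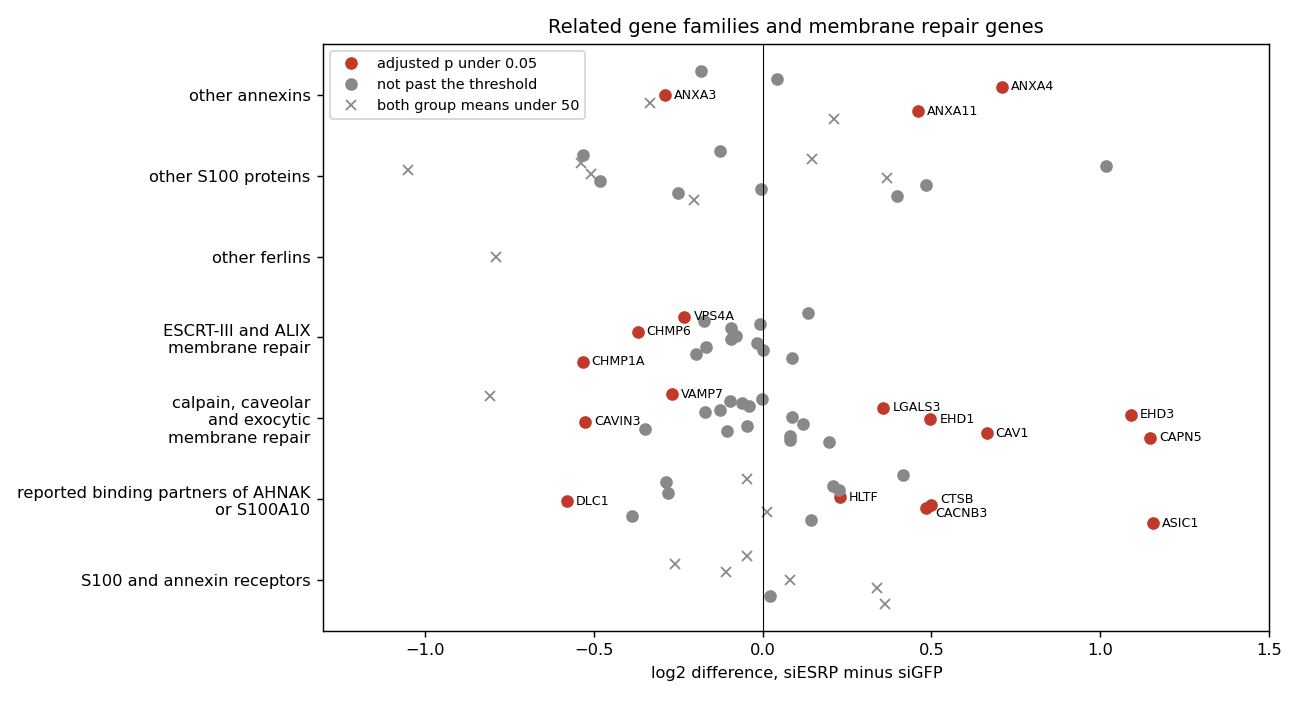
Log2 difference (x axis, siESRP minus siGFP) of each measured gene of the 7 related lists (y axis), in red with its name where the limma adjusted p was under 0.05 and as a cross where both group means were under 50. The 3 ESCRT-III genes that passed lie left of 0, which is 21.4% of those measured beside 20.2% of all rows. No S100 gene outside the members passed, out of 14 measured, of which 6 had both group means under 50.

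Of 14 measured genes reported to bind AHNAK or S100A10, 4 rose, 1 fell and 9 did not pass (median log2 difference 0.18). The share that passed was 35.7%, beside 20.2% of all rows. ASIC1, an acid-sensing ion channel that S100A10 brings to the surface, read 148, 166, 134 and 152 in siESRP cells, against 56.5, 67.7, 73.5 and 69.5 in siGFP cells. It rose 2.23-fold (log2 difference 1.16 ± 0.10 SE, limma adjusted p = 0.000504). Its siGFP mean of 66.8 is close to the KLK3 level, and as no detection call was used here, part of such a level may be background and the fold is approximate. CACNB3, a calcium channel beta subunit of the kind that AHNAK binds in heart muscle, rose 1.40-fold (limma adjusted p = 0.00229). CTSB, the protease cathepsin B, rose 1.41-fold (limma adjusted p = 0.00876, and 0.107 on the deposited scale). HLTF, a chromatin remodeller that binds the S100A10 and ANXA2 complex, rose 1.17-fold (limma adjusted p = 0.0412), and its groups overlapped. That call ended on the deposited scale (0.352), with median scaling (0.156), without the dimmest rows (0.0566), with a replicate block (0.0622), and without siESRP replicate 1, 3 or 4 or siGFP replicate 1, 2 or 4 (0.0796 to 0.101). DLC1 averaged 558 ± 16.1 in siESRP cells and 834 ± 22.1 in siGFP cells and fell 1.49-fold (limma adjusted p = 0.000227). PLCG1 and HTR1B had log2 differences of 0.21 and -0.28 and did not pass, apart from PLCG1 with a pseudocount of 16 (limma adjusted p = 0.0472) and HTR1B without siESRP replicate 3 (0.0227).

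None of 7 receptors of S100 and annexin proteins passed, beside 20.2% of all rows (limma, 0 also at an unadjusted p of 0.05). Both means were under 50 in 6 of them, among them FPR2. BSG, also called basigin, averaged 4875 ± 315 in siESRP cells and 4801 ± 241 in siGFP cells.

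**Figure D5:**
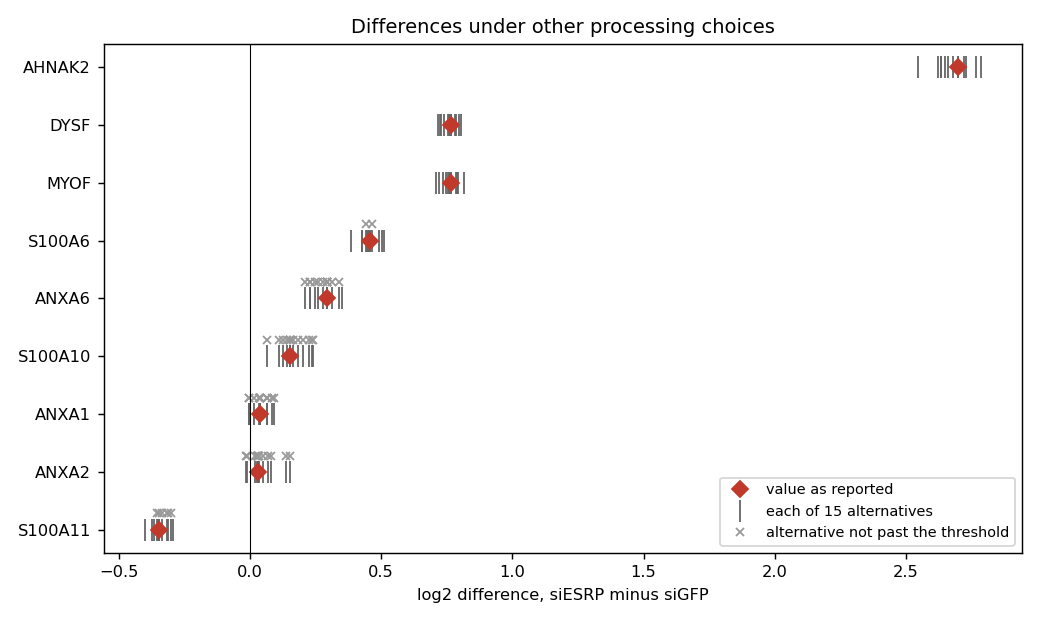
Log2 difference (x axis, siESRP minus siGFP) of each of the 9 members as reported (diamond) and under 15 alternatives (ticks), with a cross above each alternative not past the threshold. AHNAK2 stayed between 2.55 and 2.78, DYSF between 0.72 and 0.80 and MYOF between 0.71 and 0.81, all past the threshold, while S100A11 lay between -0.40 and -0.29. The members were selected on this contrast, so their calls under the alternatives are a description and carry no test.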

How the data were processed

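The authors deposited 1 table of linear intensity values with 18495 rows for the 8 arrays, with background correction, probe summary, scaling and genome build not given in the sources used here. Per the labels' protocols, ribosomal RNA was removed from 1 µg of total RNA before biotin labelling. Groups came from the titles. Deposited log2 medians differed by up to 0.29, so quantile normalization was applied to the linear values. Negative values then became 0, and log2(value + 1) followed. Testing used limma 3.58.1 in R 4.3.3 (lmFit, eBayes, two-sided, no covariate) with a Benjamini-Hochberg threshold of 0.05 over all rows, which gave every adjusted p. The steps were tested on simulated data.

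GEO's platform annotation named the genes: 14577 rows had 1 symbol, 2849 several and 1069 none. A gene with several rows is represented by the brightest. The members, lists and motifs were chosen with earlier results of these data known. Named were all members, up to 6 passing and 2 brightest other genes per list, and the 5 genes most like AHNAK2. Whether samples were separate cultures is not in the labels, so the p-values reflect spread between these samples only, possibly technical. Alternatives were other scaling, a filter on dim rows, a pseudocount of 16 and trended robust eBayes. A replicate block, a threshold of 0.01, averaged rows and leaving out each array were also run. The threshold of 0.01 was not applied to the members, so each of them had 15 alternatives.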

Additional observations from a re-analysis of the deposited data

Results flagged for a closer look

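Single arrays were checked for the 9 members, the 2 shared rows and the 30 related genes chosen by the naming rule. The gap between the outermost array of a group and its nearest neighbour was divided by the group's range. This ratio exceeded 0.829, Dixon's limit for 4 values, in 5 of 82 cases, and about 1 in 20 would do so by chance. None was a member. All 5 lay in siESRP. In S100A14 replicate 4 was high (637 against a next value of 451, ratio 0.872), and in HTR1B replicate 3 was high (371 against 238, ratio 0.889). In CAPNS1 replicate 3 was high (5481 against 5077, ratio 0.831). In CHMP2A replicate 4 was low (2387.5 against 2909, ratio 0.855), and in CTSB replicate 4 was low (1890.4 against 2233, ratio 0.876).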

How the results depend on the processing

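Under the alternatives run, none of the 9 members or the 30 related genes chosen by the naming rule turned its direction while called. The 3729 rows called became 1673 on the deposited scale, 2292 with a replicate block and 1808 at an adjusted p under 0.01, with 2728 to 3790 on leaving out 1 array. The 5 members past the threshold (4 higher, 1 lower) became 3 on the deposited scale (3 higher, 0 lower) with 4 to 6 on leaving out 1 array. The members were not read at an adjusted p under 0.01, so their calls at that threshold are not known here. The 18 related genes called (11 higher, 7 lower) became 8 on the deposited scale (7 higher, 1 lower) and 10 at an adjusted p under 0.01 (8 higher, 2 lower), with 14 to 23 on leaving out 1 array. With a replicate block, 9 related genes were higher and 3 lower. Deviations of arrays with the same replicate number from their group means correlated at 0.14, 0.09, -0.28 and -0.01. With 4 arrays per group, these values cannot decide whether samples of the same number were handled together. The labels do not say so either. Levels near 0 cannot be told from background.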

Other observations

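Within the siGFP arrays some members took 1 of 2 opposite orders. S100A10, ANXA6 and both S100A6 rows were higher in replicates 1 and 3 than in replicates 2 and 4, while MYOF, ANXA1, ANXA2 and the row shared by ANXA2P2 and ANXA2 were higher in replicates 2 and 4 than in 1 and 3. AHNAK2, DYSF, S100A11 and the shared AHNAK row took neither order. The same orders were common among all bright rows, 26% with 1 and 3 above and 25.1% with 2 and 4 above, while 48.9% took neither, out of 12077. The deposited medians were 286 and 264 in replicates 1 and 3, and 254 and 233 in replicates 2 and 4. On the deposited scale S100A10 and both S100A6 rows kept their order, ANXA2 took the opposite one, and MYOF, ANXA1, ANXA6 and the shared ANXA2P2 row took neither. There AHNAK2 and DYSF again took neither, and S100A11 and the shared AHNAK row were higher in replicates 1 and 3. The part of array brightness in these orders was not tested.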
